A study of Rattus norvegicus with 24 samples.

Results

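The comparison described here is the total difference between male rats exposed to dibutyl phthalate (DBP) at 2 times of life and male rats never exposed to it. Its members are 8 of the 24 arrays of the series, namely the 4 PND35 testis arrays titled DBP-DBP and the 4 titled Oil-Oil. The study asked how a fetal exposure and an exposure around puberty act on the testis transcriptome of Fisher 344 rats, an inbred laboratory strain. Dams were gavaged daily from gestational day 12 to 20 with corn oil or with 50 mg/kg DBP in corn oil, and 1 further gavage of corn oil or of 500 mg/kg DBP was given to each male at postnatal day 35 (PND35). All testes were freed of their tunica and collected 6 hours after that last gavage, so every group, including the never exposed one, carries a corn oil gavage. The DBP-DBP group is pups 124, 128, 133 and 135 and the oil-oil group is pups 104, 110, 114 and 120. The groups between them, oil-DBP (pups 105, 111, 115 and 121) and DBP-oil (pups 123, 127, 132 and 134), are used only to set the total difference beside each single exposure. The dam of each pup is not given in the labels used here, so the p-values measure the spread between these samples and pups of a group may share a litter. The last dose precedes collection by 6 hours in both DBP-treated groups, so an effect of that dose and an effect of repeated exposure are seen together in the total difference.

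DBP is a plasticizer, and its monoester is toxic to the testis of young rats. Sertoli cells, the somatic cells that line the seminiferous tubule and hold the germ cells, are its best known target before and during puberty, where exposure is followed by detachment and death of germ cells. Leydig cells, which make testosterone from cholesterol between the tubules, are the best known target in the fetal testis. Cells under acute stress switch on immediate early genes such as Fos and Egr1, whose products are transcription factors, and the NF-kB pathway switches on chemokines together with its own inhibitors. Peritubular myoid cells are the contractile cells around each tubule, and resident macrophages lie between the tubules.

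Expression was read on Affymetrix Rat230_2 arrays as probe-set intensity on a linear scale. Changes are differences of log2(intensity + 16), so those of dim genes are compressed. They are given with their moderated standard error (SE), and p-values are from limma with Benjamini-Hochberg adjustment over 31042 probe sets at a threshold of 0.05. The labelled tissue was borne out by bright germ cell, Sertoli cell and Leydig cell markers on the oil-oil arrays, with intensities of 35180 ± 3517 (SD, n = 4) for Prm1 (protamine 1, which packs spermatid DNA), 24025 ± 2006 for Clu (clusterin, secreted by Sertoli cells) and 8606 ± 1217 for Cyp17a1 (the 17-alpha-hydroxylase of androgen synthesis). Median intensity lay between 100.8 and 106.7 on oil-oil arrays and between 103.9 and 109.1 on DBP-DBP arrays, and the number of arrays limits the precision.

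The groups also differ in a handling mark and in RNA quality. The poly-A spike-ins, control RNAs added to each sample, averaged a log2 level of 5.90 to 6.06 over 24 probe sets on the oil-oil arrays and of 7.31 to 7.53 on the DBP-DBP arrays, so all 4 DBP-DBP arrays belong to a high spike-in class and all 4 oil-oil arrays to a low one. The DBP-oil group holds both classes, 2 low arrays (pups 123 and 127) and 2 high arrays (pups 132 and 134), which lets the class enter a fit as a covariate. No other group holds both classes, so the class effect in that fit rests on these 2 against 2 arrays alone. It is carried over from them to DBP-DBP and oil-oil, which the class separates fully. The RNA integrity number was 8.75 ± 0.173 (SD, n = 4) in DBP-DBP and 8.425 ± 0.171 in oil-oil (exact permutation test, two-sided, p = 0.0857, with 0.0286 the smallest p possible). The ratio of 3' to 5' Actb signal was 1.83 to 2.08 on DBP-DBP arrays and 2.12 to 2.83 on oil-oil arrays, without overlap. The part of these marks in any gene's difference was not tested, and counts of each gene list with the class in the fit are given beside the main ones.

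**Figure D1:**
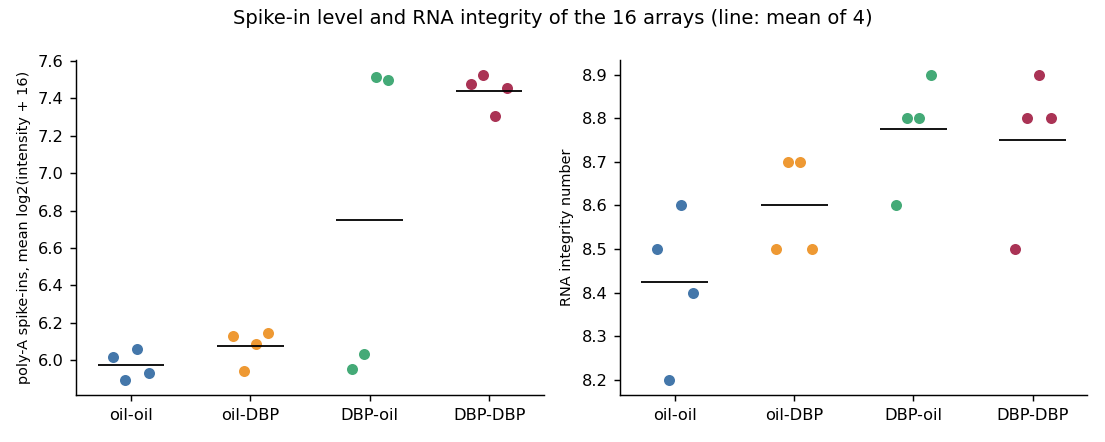
Poly-A spike-in level (left, mean log2(intensity + 16) of 24 probe sets) and RNA integrity number (right) on each of the 16 PND35 arrays, by group, with a line at the mean of 4. The DBP-DBP arrays lie at 7.31 to 7.53 on the left and the oil-oil arrays at 5.90 to 6.06, while the DBP-oil group is split between both levels.

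Between DBP-DBP and oil-oil 2561 of 31042 probe sets (8.25%) differed, 1457 higher (4.69%) and 1104 lower (3.56%) in DBP-DBP. The count was 1675 without the DBP-DBP array of pup 133. Counted once per gene, by the probe set with the highest mean, 770 genes were higher (5.42%) and 768 lower (5.4%) of 14217, or 10.8% in all. The main counts of members in each gene list below should be read against these shares. The arrays of both groups did not overlap for 2601 of the 14217 genes (18.3%), passed or not. The rises were the larger changes. Among genes past the threshold, 345 rose and 73 fell at least 2-fold, 114 rose and 1 fell at least 4-fold, and 39 rose and 0 fell at least 8-fold. The 12 largest rises and 12 largest falls were taken from called genes whose arrays did not overlap. The separation of their arrays, described below, was fixed by that choice and carries no test. Of the 12 largest rises 8 encode chemokines (Cxcl1, Ccl2, Ccl20 and Ccl7), S100 proteins (S100a8 and S100a9) or immediate early transcription factors (Fos and Egr1), and the others are Calcb, Nfkbiz, Serpinb2 and Tnfrsf12a. The largest falls include Cxcr4, Slc25a45 and Camsap3.

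Arrays of a group resembled each other more than they resembled the other group. The SD of the log2 differences between a pair of arrays, over 18185 probe sets with a mean of at least 64, was 0.279 to 0.35 within DBP-DBP, 0.338 to 0.393 within oil-oil and 0.467 to 0.645 between them. The median log2 change over all 14217 genes was -0.09, which is the level against which the medians of gene groups below should be read. In a fit that also held the spike-in class, 343 of 31042 probe sets were called (285 higher, 58 lower), against 2561 in the main fit. Counts of gene lists with the class in the fit should be read against that smaller number. Of the 2561 probe sets called in the main fit, picked for passing in these same arrays, 2541 kept their sign. The median SE rose from 0.227 to 0.393 in that fit, while the median size of the change over the same 2561 probe sets went from 0.69 to 0.63.

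The 12 largest rises were led by Cxcl1, a chemokine that attracts neutrophils. Its intensity was 3.64, 4.07, 19.9 and 8.35 on the oil-oil arrays and 5324, 3525, 1842 and 6603 on the DBP-DBP arrays. Every DBP-DBP array was far above every oil-oil array. The change was 7.30 ± 0.29 (log2, SE), with a limma adjusted p of 3.02e-12. The DBP-oil arrays read 6.87 and 1.13 in the low spike-in class and 13.8 and 4.15 in the high one. With the class as a covariate the change was 7.05, and the part of the class in it was not tested.

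Ccl2, which recruits monocytes, read 24.1, 6.26, 72.2 and 57.9 on the oil-oil arrays and 1959, 1596, 2583 and 3597 on the DBP-DBP arrays. The change was 5.54 ± 0.32 (limma adjusted p = 2.11e-10). Ccl7, a related monocyte chemokine, rose by 4.41 ± 0.24 and Ccl20, the ligand of the receptor CCR6, by 4.78 ± 0.44. Of the 16 chemokines measured, 9 were higher and 0 lower, with a median change of 1.32, and 8 were higher with the class in the fit. Cxcl10 (3.59 ± 0.20), Cx3cl1 (2.65 ± 0.20) and Cxcl2 (2.37 ± 0.46) were among them. Those that did not pass include Ccl3 (-0.24), Ccl4 (-0.04), Ccl5 (-0.39) and Cxcl12 (-0.47). Cxcr4, the receptor of Cxcl12, was among the largest falls, described below.

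S100a8 and S100a9, the paired calcium-binding proteins abundant in neutrophils and induced in inflamed tissue, had the widest spread among the large rises. S100a9 read 22.1, 6.87, 1.98 and 50.3 on the oil-oil arrays and 429.2, 389.5, 1806 and 2860 on the DBP-DBP arrays. Pups 133 and 135 were the high DBP-DBP arrays, and even the low ones, pups 124 and 128, exceeded every oil-oil array. Its change was 4.91 ± 0.61, and that of S100a8 4.15 ± 0.48 (limma adjusted p = 1.26e-05 and 5.42e-06). Of 12 markers of neutrophils and lymphocytes 0 passed, where 10.8% of all genes did, and 4 of the 12 had a mean under 16. Their summed intensity was 517.7 to 588.2 in oil-oil and 479.6 to 744.5 in DBP-DBP, with overlap. The neutrophil receptor genes Csf3r (0.97, adjusted p = 0.271) and Cxcr2 (0.58) did not pass in limma's test. The part of infiltrating cells in the S100a8 and S100a9 rise was not tested.

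Among adhesion molecules, Icam1 and Vcam1, which bind leukocytes to endothelium and other cells, rose by 2.85 ± 0.26 and 2.85 ± 0.23, and the selectins Sele (0.25) and Selp (-0.20) did not pass. S100a10 rose by 2.41 ± 0.19. In all 5 of 11 measured adhesion and S100 genes were higher and 0 lower, with a median of 0.54, and 5 were also higher with the class in the fit.

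Among 23 measured cytokines and cytokine receptors 12 were higher and 0 lower, with a median of 1.55, against 8 higher with the class in the fit. Il6, a cytokine of the acute response, read 40.4, 18.7, 2.39 and 2.37 on oil-oil arrays and 310.1, 213.6, 345.5 and 539.0 on DBP-DBP arrays. The groups were well separated, and the change was 3.58 ± 0.36 (limma adjusted p = 7.5e-07). Il1a, an interleukin that Sertoli cells are known to make, read 150.5, 138.1, 164.4 and 192.8 against 1562, 1488, 1085 and 1782 and rose by 3.02 ± 0.16. Among receptor genes, Il6r rose by 2.74 ± 0.22 and Tnfrsf12a, the receptor for TWEAK, by 3.91 ± 0.22. Tnf itself did not pass (0.76 ± 0.34, limma adjusted p = 0.205), nor did Csf1 (-0.25) or Il18 (-0.19).

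Immediate early genes rose broadly: 21 of 29 were higher and 0 lower, with a median of 1.74. Fos, a subunit of the transcription factor AP-1, read 19.3, 43.1, 6.86 and 17.9 on oil-oil arrays and 1437, 792.4, 720.5 and 1629 on DBP-DBP arrays. No oil-oil array came near the DBP-DBP range, and the change was 4.90 ± 0.27 (limma adjusted p = 1.34e-10). A further Fos probe set did not pass. Egr1, a zinc-finger transcription factor, read 164.5, 223.3, 252.6 and 209.3 against 3682, 2566, 2627 and 5264 and rose by 3.87 ± 0.18. Its paralogue Egr2 rose by 3.58 ± 0.26, though not on its further probe set, and the secreted matrix protein gene Ccn1 by 3.58 ± 0.19. Junb (2.80 ± 0.21), Atf3 (2.87 ± 0.29) and Myc (2.59 ± 0.23) were also higher. The members that did not pass include Egr3 (0.15), Nr4a2 (0.17), Klf4 (0.03) and Srf (-0.07). With spike-in class as a covariate 14 of the 29 passed, all higher.

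The NF-kB pathway and the factors that damp cytokine signals showed the highest share of changed members, 16 of 19 higher and 0 lower, with a median of 1.22. There were 11 higher with the class in the fit. Nfkbiz, an atypical inhibitor protein that steers NF-kB on some promoters, read 7.91, 43.0, 51.4 and 48.0 on oil-oil arrays and 860.3, 774.1, 678.1 and 1104 on DBP-DBP arrays. The groups were far apart although 1 oil-oil array, that of pup 104, was lower than the others, and the change was 4.07 ± 0.40. A further Nfkbiz probe set did not pass. Nfkb2, which encodes the p100 precursor, rose by 3.22 ± 0.35, Tnfaip3 (A20, an enzyme that shuts NF-kB off) by 2.53 ± 0.21 and Nfkbia (the classical inhibitor) by 1.17 ± 0.13. Socs3, which blocks cytokine receptor signalling, rose by 3.06 ± 0.27 and Zfp36, which destabilises cytokine mRNAs, by 2.90 ± 0.13. Rela, the transactivating subunit, did not pass (-0.09).

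Feedback on MAP kinase signalling moved as well, with 10 of 15 genes higher and 1 lower and a median of 0.87. The fit with the class gave 5 higher and 0 lower. Spry1, an inhibitor of Ras signalling, rose by 2.32 ± 0.18, and the phosphatase genes Dusp1 and Dusp5 by 1.96 ± 0.17 and 1.88 ± 0.20. Dusp1 read 247.2, 251.9, 248.6 and 234.3 on oil-oil arrays, a narrow range, and 871.4, 744.9, 1124 and 1524 on DBP-DBP arrays. Dusp8 was the member that fell, by 1.02 ± 0.27 on the log2 scale (limma adjusted p = 0.0217), at dim intensities of 32.6 ± 6.41 (SD, n = 4) in oil-oil and 8.50 ± 3.20 in DBP-DBP.

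**Figure D2:**
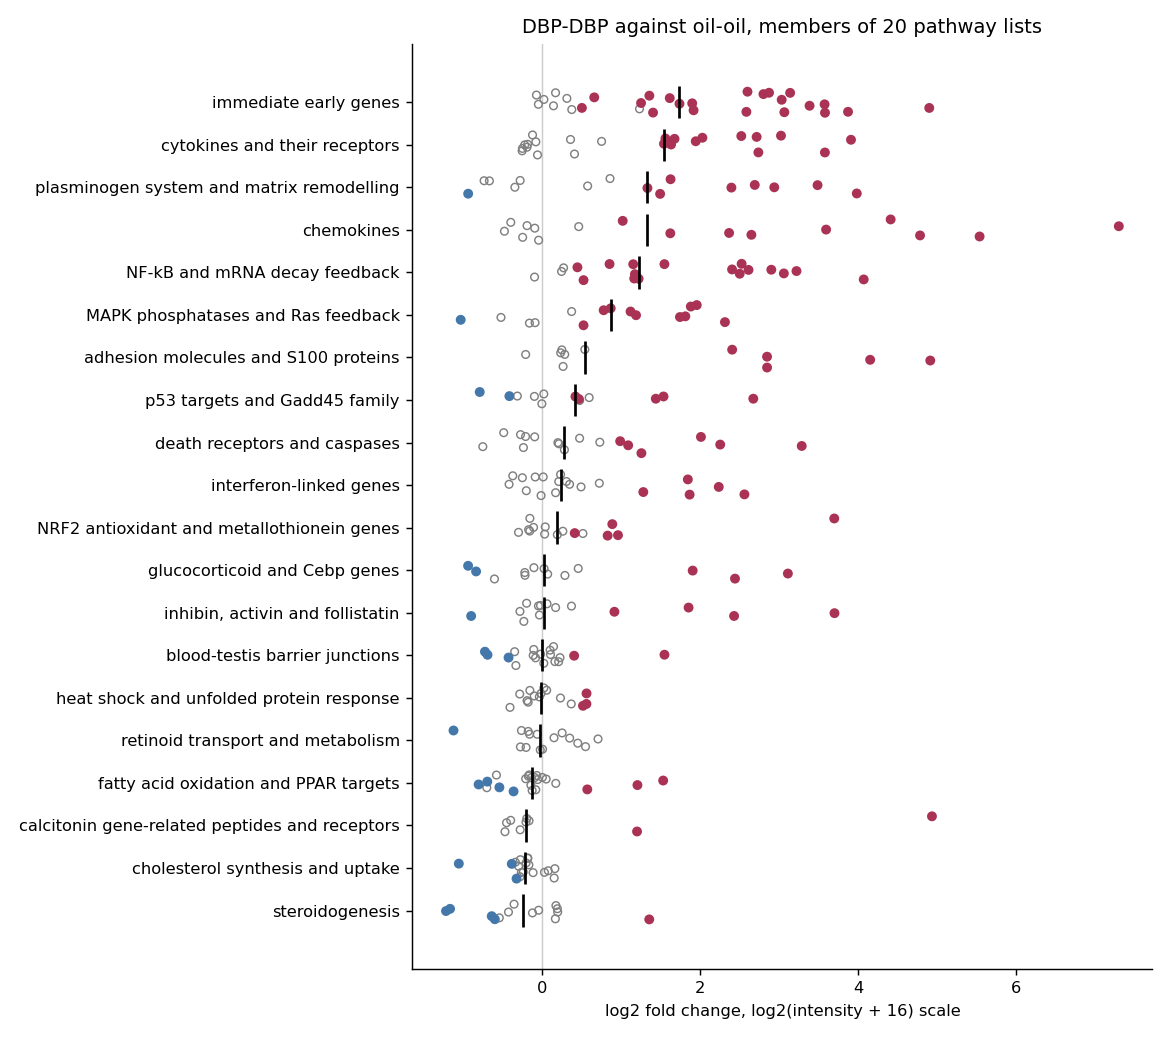
Log2 change of DBP-DBP against oil-oil for each measured member of 20 pathway lists. Filled points passed limma's threshold of 0.05 (red higher, blue lower), open points did not, and the bar is the list's median, from 1.74 for immediate early genes to -0.23 for steroidogenesis.

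The promoters of some of the genes that rose are shown here because the genes belong to the groups above and hold short motifs that the NF-kB, AP-1, CREB and serum response factors are known to bind. The sequences are RefSeq's, build GRCr8, read on the gene's strand within the 250 bases before the annotated start, and the capitals mark the motif. The 8 genes were picked after the matches had been seen.

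Cxcl1: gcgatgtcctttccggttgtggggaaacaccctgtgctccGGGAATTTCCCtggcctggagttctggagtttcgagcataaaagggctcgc
Nfkbiz: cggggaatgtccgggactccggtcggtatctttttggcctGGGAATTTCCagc
Nfkb2: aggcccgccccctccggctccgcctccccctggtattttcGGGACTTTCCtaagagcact
Il6: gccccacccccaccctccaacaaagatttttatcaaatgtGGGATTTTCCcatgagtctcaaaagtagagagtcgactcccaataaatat
Vcam1: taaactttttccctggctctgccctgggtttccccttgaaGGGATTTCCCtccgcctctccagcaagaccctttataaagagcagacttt
Srxn1: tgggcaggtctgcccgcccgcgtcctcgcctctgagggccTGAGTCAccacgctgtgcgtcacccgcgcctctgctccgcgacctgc
Dusp1: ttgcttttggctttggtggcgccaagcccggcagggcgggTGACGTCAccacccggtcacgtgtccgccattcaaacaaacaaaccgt
Zfp36: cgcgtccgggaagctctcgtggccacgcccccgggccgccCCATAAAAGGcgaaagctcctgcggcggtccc

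The Cxcl1 window is chr14:17479355-17479445 on the minus strand, and its capitals hold 2 overlapping matches to the NF-kB consensus that begin 84 and 83 bases before the start. The other NF-kB windows are Nfkbiz at chr11:58251668-58251720 (plus), Nfkb2 at chr1:255108314-255108373 (plus), Il6 at chr4:5894594-5894683 (minus) and Vcam1 at chr2:206742827-206742916 (minus). Srxn1 (chr3:161064710-161064796, plus) holds an AP-1 match, Dusp1 (chr10:17184689-17184776, plus) a CRE match and Zfp36 (chr1:92799109-92799180, minus) a match to the CArG box. Both strands were searched. The NF-kB consensus was present in 3.54% of all 33469 promoters in the table, in 4.19% of the 13242 promoters of measured genes, in 8.21% of the 682 promoters of genes that rose and in 4.62% of the 692 promoters of genes that fell. For AP-1 (TGANTCA) these shares were 6.34%, 4.98%, 7.77% and 4.62%, for CRE (TGACGTCA) 1.59%, 2.5%, 3.81% and 2.02%, and for the CArG box 1.5%, 1.34%, 2.49% and 1.45%. Of the 12 genes with the largest rises 8 had a promoter in the table. The NF-kB consensus was found for Cxcl1, Ccl20 and Nfkbiz, AP-1 for Ccl7 and Serpinb2, the CArG box for Egr1, and no searched motif for S100a9 or Tnfrsf12a. These matches are letters in a window and carry no test.

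Interferon-linked genes were changed in part, with 5 of 19 higher, 0 lower and a median of 0.24, and 3 higher with the class in the fit. Gbp2, a guanylate-binding protein of interferon-treated cells, rose by 2.56 ± 0.16, and the transcription factor genes Irf1 and Stat3 rose by 2.24 ± 0.18 and 1.87 ± 0.19. Among antiviral genes of type I interferon, Ifit3 (1.85 ± 0.37, from 24.0 ± 3.78 to 139.7 ± 59.4, SD, n = 4) and Ifit2 (1.28) were higher, and Mx1 (-0.37), Mx2 (-0.41) and Isg15 (0.73) did not pass. Ifit3 lost its call with the RNA integrity number or the class in the fit.

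Among death receptor, Bcl2 and caspase genes 6 of 17 were higher and 0 lower, with a median of 0.29. The fit with the class gave 2 higher. Fas, the death receptor that germ cells carry after phthalate injury, read 33.5, 30.2, 40.9 and 25.2 on oil-oil arrays and 166.7, 128.7, 344.2 and 309.2 on DBP-DBP arrays. Pups 133 and 135 were again the higher DBP-DBP arrays, and the groups did not overlap. The change was 2.26 ± 0.35 (limma adjusted p = 2.04e-04), but 2 further Fas probe sets did not pass, and with spike-in class as a covariate the change was 1.59 with an adjusted p of 0.301. Faslg, its ligand, did not pass (-0.23 ± 0.24, adjusted p = 0.641 in limma's test). The other genes that rose are mostly known as brakes on cell death: Bcl2a1 (3.29 ± 0.29), Cflar (2.01 ± 0.37), which blocks caspase 8, and Mcl1 (1.26 ± 0.11). Cflar was not called on its further probe set or with the class in the fit. The BH3-only gene Bcl2l11 (0.99 ± 0.20), which promotes death, also rose.

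Stress-linked growth arrest genes included Gadd45b (2.67 ± 0.21), Gadd45g (1.54 ± 0.16) and Cdkn1a, the cell cycle inhibitor p21 (1.44 ± 0.17), all higher. Sesn1 and Sesn2, p53 targets like Cdkn1a, fell by 0.78 ± 0.15 and 0.41 ± 0.13 on the log2 scale, and Mdm2, the classical p53 target, did not pass (-0.31). A further Sesn1 probe set did not pass, and the Sesn1 call was lost with the RNA integrity number in the fit. In all 5 of 13 were higher and 2 lower, with a median of 0.43, and with the class in the fit 3 were higher and 0 lower.

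In the plasminogen system, which turns over matrix at the seminiferous epithelium, 8 of 15 genes were higher and 1 lower, with a median of 1.34. The fit with the class gave 6 higher and 0 lower, and Adamts4, described below, lost its call. Plaur, the urokinase receptor, read 5.32, 4.72, 5.69 and 4.38 on oil-oil arrays and 167.0, 117.7, 379.5 and 337.4 on DBP-DBP arrays. It was dim on every oil-oil array and clearly raised on every DBP-DBP array, with a change of 3.49 ± 0.35, although a further Plaur probe set did not pass. Serpinb2, an inhibitor of plasminogen activators, rose by 3.98 ± 0.44 and Plat, the tissue-type activator, by 2.40 ± 0.20. Plau, the urokinase itself, fell by 0.93 ± 0.18 (limma adjusted p = 0.00149). The matrix proteases Adamts1 (2.94 ± 0.22) and Adamts4 (2.69 ± 0.32) and the inhibitor Timp1 (1.63 ± 0.20) were higher.

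Calcb, which encodes beta-CGRP, a vasodilator neuropeptide, was among the 12 largest rises. It read 2.96, 9.46, 2.84 and 25.6 on oil-oil arrays and 529.5, 553.6, 1215 and 940.1 on DBP-DBP arrays, with a change of 4.93 ± 0.32. Calca, its paralogue, which encodes alpha-CGRP and calcitonin, stayed at 4.83 to 52.9 on the DBP-DBP arrays and did not pass (-0.20). Of the 9 genes of this peptide family and its receptors Calcb and Adm (adrenomedullin, 1.21 ± 0.34) were higher and none was lower. Calcb alone was called with the class in the fit. Adm lost its call in limma when any of the oil-oil arrays of pups 110, 114 or 120, or either of the DBP-DBP arrays of pups 133 and 135, was left out.

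**Figure D3:**
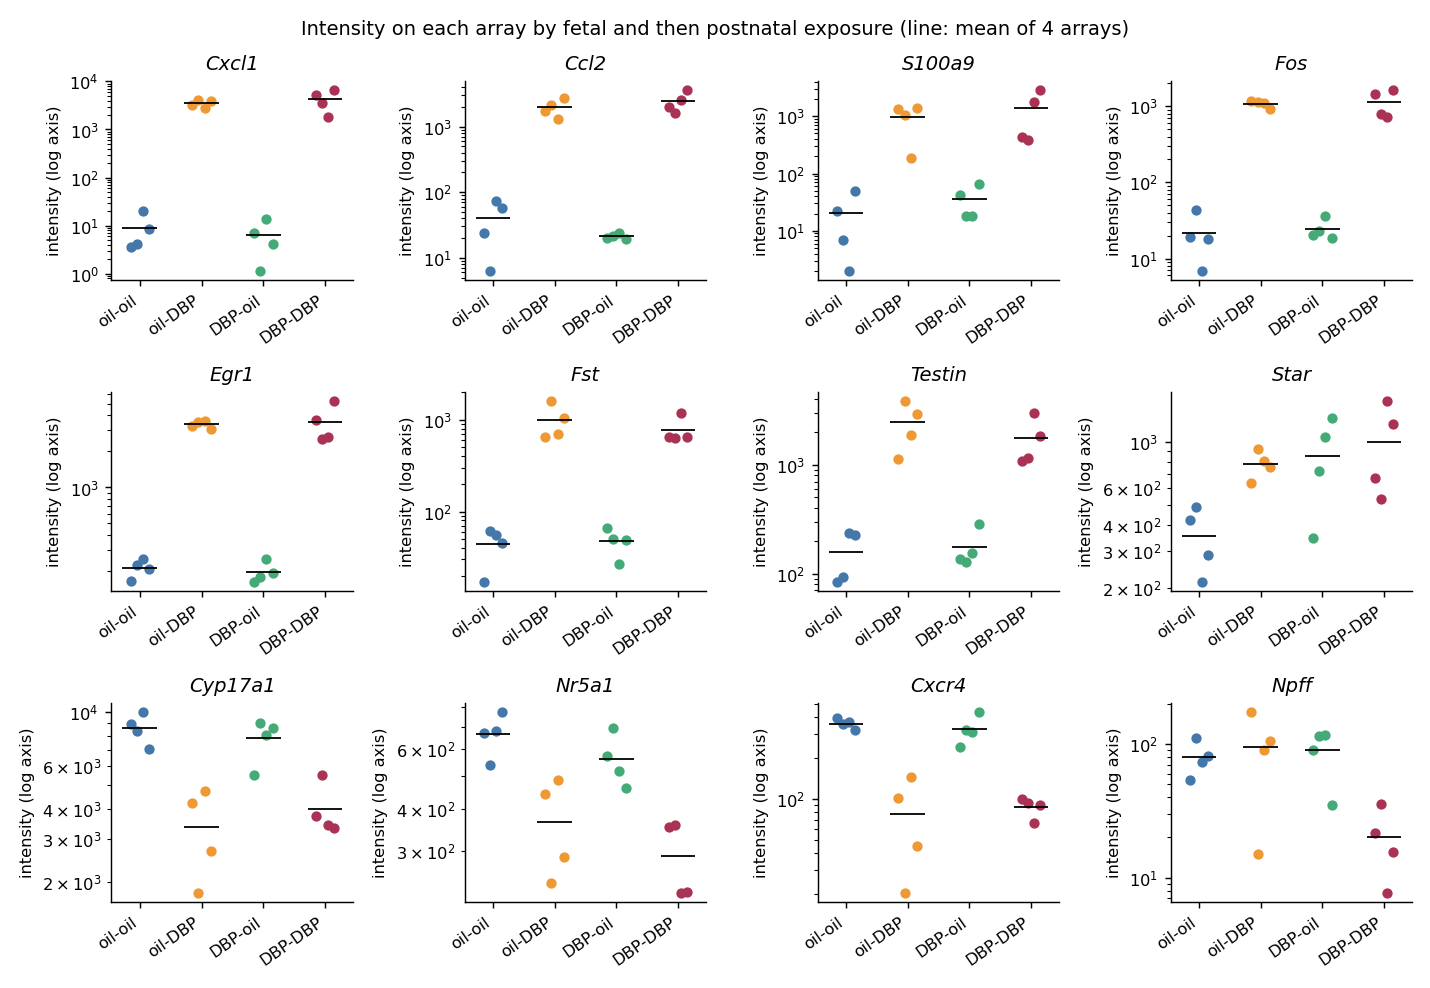
Intensity of 12 genes on each of the 16 PND35 arrays, on a log axis, by fetal and then postnatal exposure, with a line at the mean of 4 arrays. Cxcl1, Ccl2, S100a9, Fos, Egr1, Fst and Testin are high and Cyp17a1, Nr5a1 and Cxcr4 low in both groups given DBP at PND35. Star is lowest in oil-oil and Npff lowest in DBP-DBP.

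The largest falls were smaller than the largest rises and reached 4-fold for Tmem229b alone among genes. Tmem229b, a membrane protein gene, read 233.0, 175.6, 328.0 and 166.7 on oil-oil arrays and 23.5, 35.8, 53.02 and 51.0 on DBP-DBP arrays. It fell by 2.11 ± 0.25 on the log2 scale (limma adjusted p = 6.62e-06). Cxcr4, the receptor of Cxcl12 carried by leukocytes, endothelium and germ cells, read 390.4, 354.9, 364.0 and 319.0 against 99.0, 93.1, 66.4 and 89.5. Both groups were tight, and the fall of 1.90 ± 0.32 was shared by 2 further Cxcr4 probe sets that passed in the same direction.

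Slc25a45, a mitochondrial carrier, fell by 1.81 ± 0.30, and Camsap3, which caps microtubule minus ends, by 1.70 ± 0.21. Smtnl2, a smoothelin-like gene, read 946.6, 803.2, 826.6 and 681.5 against 319.9, 318.4, 277.2 and 225.3 and fell by 1.5 ± 0.13. It was lower on every DBP-DBP array by a wide margin, and a further probe set passed too. With spike-in class as a covariate 12 of the 12 largest rises passed, with changes of 3.58 to 7.05. Of the 12 largest falls 4 passed, Tmem229b (-2.14), Camsap3 (-1.59), Smtnl2 (-1.63) and Slc18b1 (-1.62). All 12 falls, passed or not, lay between -2.22 and -0.73 in that fit. G0s2, an inhibitor of fat breakdown, fell by 1.52 ± 0.46 (limma adjusted p = 0.0422) and lost its call without the oil-oil array of pup 104, 110 or 114 or the DBP-DBP array of pup 124, 133 or 135.

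Genes of testosterone synthesis did not move as a block: 1 of 14 was higher and 4 lower, with a median of -0.23, and with the class in the fit 0 were higher and 1 lower. Star, which carries cholesterol into the mitochondrion, read 422.4, 486.5, 212.3 and 285.6 on oil-oil arrays and 670.5, 530.4, 1565 and 1213 on DBP-DBP arrays. Its groups came close at 486.5 and 530.4, and the rise was 1.36 ± 0.33 (limma adjusted p = 0.0114), not called on a further Star probe set. Star also read 1050 and 1300 on the high-class DBP-oil arrays and 345.2 and 723.2 on the low-class ones. With spike-in class as a covariate its change was 0.23 (adjusted p = 0.936). The Star call was also lost with the RNA integrity number in the fit and without the oil-oil array of pup 114 or the DBP-DBP array of pup 133.

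Cyp17a1 read 8977, 8373, 9994 and 7082 on oil-oil arrays and 3737, 5510, 3441 and 3321 on DBP-DBP arrays. All 4 DBP-DBP arrays were lower, and the fall was 1.16 ± 0.24 on the log2 scale (limma adjusted p = 0.00305). Nr5a1, which encodes steroidogenic factor 1, read 668.8, 539.1, 679.7 and 772.3 against 353.8, 357.2, 224.8 and 227.2 and fell by 1.21 ± 0.21. Its second probe set passed as well, but the Nr5a1 call was lost with the RNA integrity number in the fit. Hsd3b1 (-0.59 ± 0.15) and the lipoprotein receptor gene Scarb1 (-0.63 ± 0.19) were lower. Scarb1 had a limma adjusted p of 0.0484 and lost its call without the oil-oil array of pup 104, 114 or 120 or the DBP-DBP array of pup 124, 133 or 135. A further Scarb1 probe set did not pass. Hsd3b1 lost its call under quantile normalization, with no intensity trend, and without the oil-oil array of pup 114 or the DBP-DBP array of pup 124. With the class covariate Cyp17a1 was at -1.34 (adjusted p = 0.17), Nr5a1 at -0.79 (adjusted p = 0.456) and Hsd3b1 at -1.09 (adjusted p = 0.0122).

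Cyp11a1, the side-chain cleavage enzyme, did not pass (-0.35 ± 0.32, limma adjusted p = 0.585), nor did the Leydig cell hormone Insl3 (-0.42 ± 0.40), the luteinising hormone receptor Lhcgr (-0.04 ± 0.15) or Hsd17b3 (0.20). Over the 10 Leydig cell markers 1 was higher and 3 lower, and with the class in the fit 0 were higher and 1 lower. Their summed intensity was 16845 to 23270 in oil-oil and 12772 to 15264 in DBP-DBP, without overlap. Cyp17a1, with a mean of 8606 in oil-oil and 4002 in DBP-DBP, is a large part of that sum. Among single genes, 18.3% did not overlap. In bulk tissue, fewer cells of a type and less RNA per cell cannot be told apart.

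Sertoli cell genes moved in both directions, 2 of 16 markers higher and 2 lower, with a median of -0.01, and 1 higher and 0 lower with the class in the fit. Testin, a protein of Sertoli cell junctions known to rise when they are disturbed, read 83.3, 92.3, 233.6 and 226.2 on oil-oil arrays and 1090, 1141, 3000 and 1850 on DBP-DBP arrays. The DBP-DBP arrays were higher throughout, by 3.32 ± 0.36 (limma adjusted p = 2.38e-06). Ctsl, a protease secreted by Sertoli cells, rose by 0.79 ± 0.21, and Inhbb, which encodes the inhibin beta-B chain, fell by 0.89 ± 0.15. Neither was called with the class in the fit, where Ctsl was at 0.50 (adjusted p = 0.737), and Ctsl also lost its call without the oil-oil array of pup 104 or 110 or the DBP-DBP array of pup 133 or 135. The Sertoli markers Clu (-0.22 ± 0.09), Cldn11 (-0.01 ± 0.10) and Vim (0.21 ± 0.09) did not pass.

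Follistatin and activin genes changed in part, 4 of 14 higher and 1 lower, with a median of 0.03. Fst alone was called with the class in the fit. Fst, which encodes follistatin, the activin-binding protein, read 16.9, 60.8, 55.2 and 45.3 on oil-oil arrays and 652.7, 626.9, 1192 and 657.9 on DBP-DBP arrays. All DBP-DBP arrays were over the oil-oil range, with pup 133 highest, and the change was 3.70 ± 0.30, in which a further probe set joined. Inhba, the activin A chain, rose by 2.43 ± 0.53 (limma adjusted p = 0.00502), with DBP-DBP arrays at 112.7, 114.7, 500.3 and 380.5, and with spike-in class as a covariate its adjusted p was 0.439. Bmp2 rose by 1.86 ± 0.31, and neither Inhba nor Bmp2 was called on its further probe set. Inhba also lost its call with the RNA integrity number in the fit. Inha, the shared inhibin alpha chain, was at -0.03 ± 0.11.

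At the junctions between Sertoli cells 2 of 18 genes were higher and 3 lower, with a median of 0.01. With the class in the fit 1 was higher and 1 lower. Cdh2, N-cadherin, rose by 1.55 ± 0.16, from 263.6 ± 46.4 (SD, n = 4) to 826.2 ± 138.5, and F11r rose by 0.41 ± 0.13. Cldn1 (-0.72 ± 0.21), Cldn5 (-0.69 ± 0.16) and the gap junction gene Gja1 (-0.42 ± 0.11) were lower. For Cldn1 and for Gja1, 2 further probe sets each did not pass. Cldn1 lost its call in 12 of 22 other settings of the analysis, among them leaving out the oil-oil array of pup 104, 114 or 120 or the DBP-DBP array of pup 124, 128 or 135. Gja1 lost its call under quantile normalization and without the oil-oil array of pup 120 or the DBP-DBP array of pup 133 or 135. In the retinoid list Cyp26b1, which degrades retinoic acid and keeps it from germ cells, fell by 1.12 ± 0.26 and the other 14 genes did not pass. Cyp26b1 was not called with the RNA integrity number or the class in the fit.

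**Figure D4:**
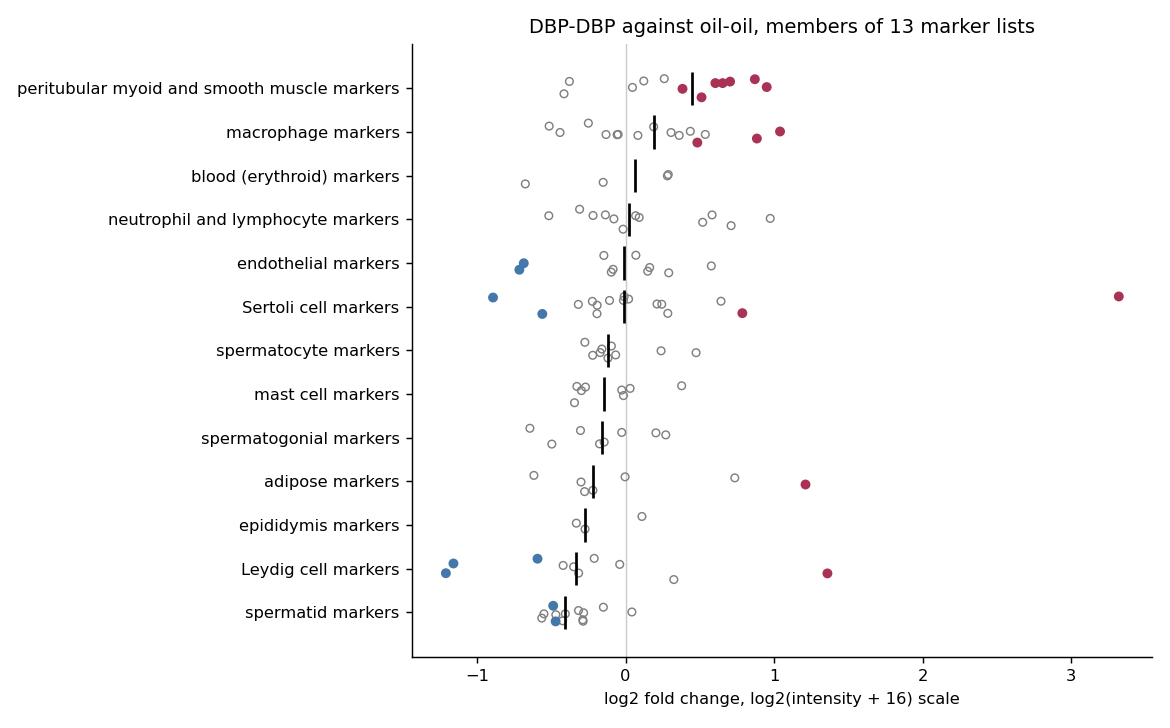
Log2 change of DBP-DBP against oil-oil for each measured member of 13 marker lists, marked as in the plot of pathway lists. The peritubular myoid list has the highest median (0.45) and the spermatid list the lowest (-0.41), while the spermatogonial and spermatocyte lists hold no filled point.

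Markers of peritubular myoid cells rose in 7 of 12 cases, with 0 lower and a median of 0.45. Cnn1, calponin, read 178.9, 175.8, 172.3 and 158.6 on oil-oil arrays and 352.3, 351.6, 306.5 and 419.4 on DBP-DBP arrays. The groups were tight and apart, and the change was 0.95 ± 0.14 (limma adjusted p = 1.56e-04). Tagln (0.87 ± 0.12), Actg2 (0.70 ± 0.13), Tpm1 (0.65 ± 0.10) and Acta2 (0.51 ± 0.14) were also higher, and Myh11 (0.05) did not pass. Their summed intensity was 11461 to 12427 in oil-oil and 14723 to 16047 in DBP-DBP, and 3 of the 12 passed with spike-in class as a covariate.

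None of 8 spermatogonial and 9 spermatocyte markers passed limma's threshold, where 10.8% of all genes did. Among 13 spermatid markers 0 were higher and 2 lower, a share near that of all genes, Prm1 (-0.47 ± 0.11) and Tnp1 (-0.49 ± 0.15, adjusted p = 0.0432 in limma's test), with a median of -0.41 over the list. Prm1 read 38155, 36207, 36277 and 30081 on oil-oil arrays and 25434, 27028, 24972 and 26392 on DBP-DBP arrays. Those 4 arrays are all below the lowest oil-oil array, but Prm1 and Tnp1 both lost their call under quantile normalization and with either the RNA integrity number or the spike-in class as a covariate, and Tnp1 overlapped between the groups. Tnp1 also lost its call without the oil-oil array of pup 104, 110 or 114 or the DBP-DBP array of pup 124, 133 or 135. Summed spermatid intensity was 136263 to 181806 in oil-oil and 118033 to 131298 in DBP-DBP, without overlap, which 18.3% of single genes also lacked.

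Among other cells, 3 of 15 macrophage markers were higher and 0 lower, with sums of 6041 to 7389 in oil-oil and 6685 to 9364 in DBP-DBP that overlap. With the class in the fit 0 were called. Cd14, the endotoxin co-receptor, rose by 1.04 ± 0.20 and the mannose receptor Mrc1 by 0.48 ± 0.10. Cd14 lost its call with the RNA integrity number in the fit. Lyz2, lysozyme, had a limma adjusted p of 0.0496, read 1116, 1039, 3042 and 2818 on DBP-DBP arrays against 1047, 803.6, 1084 and 823.4, overlapped between groups and lost its call without any of the oil-oil arrays or without the DBP-DBP array of pup 133 or 135. The endothelial markers Cldn5 and Tek (-0.71 ± 0.18) were lower, 2 of 10, beside 10.8% over all genes. Neither was called with the RNA integrity number or the class in the fit, and Tek lost its call without the oil-oil array of pup 104 or 114 or the DBP-DBP array of pup 133 or 135. None of 8 mast cell, 4 erythroid and 3 epididymal markers passed in limma, lists too short to read against the 10.8% of all genes. Of 7 adipose markers 1 was higher (14.3%), namely Fabp4. It was dim, at 4.41 ± 2.73 (SD, n = 4) in oil-oil and 33.3 ± 12.2 in DBP-DBP, and lost its call with the RNA integrity number or the class in the fit and without the oil-oil array of pup 104 or the DBP-DBP array of pup 124.

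In cholesterol synthesis 0 of 18 genes were higher and 3 lower (16.7%, beside 10.8% over all genes), with a median of -0.22. Dhcr7 fell by 1.05 ± 0.19 on the log2 scale, Fdps by 0.38 ± 0.10 and Sqle by 0.32 ± 0.08. With the class in the fit 0 were called, Fdps was at -0.02 (adjusted p = 0.982) and Sqle at -0.02. Fdps also lost its call without the oil-oil array of pup 104 or 110 or the DBP-DBP array of pup 135, and Sqle without the oil-oil array of pup 114 or the DBP-DBP array of pup 135. Fdps and Sqle lost it with the RNA integrity number in the fit as well. For fatty acid oxidation and PPAR targets 3 of 22 were higher and 4 lower, with a median of -0.13, near that of all genes. Angptl4 alone was called with the class in the fit. Angptl4, a PPAR target that blocks lipoprotein lipase, read 346.7, 322.5, 452.4 and 325.6 on oil-oil arrays and 1151, 1059, 1160 and 1026 on DBP-DBP arrays and rose by 1.53 ± 0.18. Cpt1a, the entry enzyme of mitochondrial fat oxidation and also a PPAR target, fell by 0.80 ± 0.16, and Fabp3 fell by 0.69 ± 0.13. Cpt1a and Fabp3 lost their call with the RNA integrity number in the fit.

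In the antioxidant list 5 of 15 were higher and 0 lower, with a median of 0.20, and with the class in the fit Srxn1 and Hmox1 were called. Srxn1, sulfiredoxin, rose by 3.70 ± 0.32, from 13.2, 32.3, 52.0 and 7.85 to 409.4, 345.6, 671.9 and 664.4. That separation was not shared by Nqo1 (-0.17) or Gclm (0.04), which are also textbook NRF2 targets. Hmox1 rose by 0.89 ± 0.12, Slc7a11 by 0.96 ± 0.18 and Sod2 by 0.83 ± 0.12. Slc7a11 lost its call with the RNA integrity number in the fit. Heat shock and unfolded protein genes were higher in 3 of 15 cases, Atf4 (0.57 ± 0.10), Hspa1a (0.57 ± 0.15) and Hsph1 (0.52 ± 0.13), and Hspa5 (0.06) and Ddit3 (-0.03) did not pass. With the class in the fit 0 were called. Hspa1a lost its call without the oil-oil array of pup 104 or the DBP-DBP array of pup 133 or 135, and Hsph1 without the oil-oil array of pup 110 or the DBP-DBP array of pup 133. Hspa1a and Hsph1 lost it with the RNA integrity number in the fit as well.

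Among glucocorticoid-linked and Cebp genes 3 of 13 were higher and 2 lower, with a median of 0.03, and with the class in the fit Cebpd and Nfil3 were called. The Cebp transcription factors Cebpd (3.11 ± 0.19) and Cebpb (1.91 ± 0.25), which take part in the acute phase response, and the repressor Nfil3 (2.44 ± 0.23) rose. Ddit4, an inhibitor of mTOR signalling, and the clock factor gene Dbp, an albumin promoter-binding protein unrelated to the phthalate of that abbreviation, fell by 0.83 ± 0.19 and 0.93 ± 0.22 on the log2 scale. The textbook glucocorticoid receptor targets Fkbp5 (0.08), Tsc22d3 (-0.10) and Per1 (-0.21) did not pass.

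The doubly exposed arrays were then set against the arrays with the same postnatal dose after fetal oil. With limma 0 of 31042 probe sets (0%) passed between DBP-DBP and oil-DBP, and 2791 had an unadjusted p under 0.05 (8.99%). Leaving out the oil-DBP array of pup 105 gave 35 calls, and leaving out the DBP-DBP array of pup 133 gave 1. In the largest rises the levels were alike in size: Cxcl1 read 3242, 4179, 2763 and 3988 on the oil-DBP arrays, Ccl2 1700, 2096, 1284 and 2730, and Fos 1159, 1128, 1107 and 911.1. These values lie within the DBP-DBP range or close to it. The difference DBP-DBP minus oil-DBP was 0.18 for Cxcl1 (95% interval -0.42 to 0.78), 0.33 for Ccl2 (-0.34 to 0.99) and 0.03 for Fos (-0.53 to 0.59). Over the 12 largest rises it lay between -0.23 and 0.55 and all 12 intervals held 0, the widest bounds being -0.94 and 1.61. A p that misses the threshold does not show that the groups are alike, and the intervals leave room for differences of that size.

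Among the 12 largest falls 10 intervals held 0, and the exceptions were Npff and Smtnl2. Npff, neuropeptide FF, read 21.5, 35.6, 7.64 and 15.5 on DBP-DBP arrays, 54.0, 111.4, 73.1 and 81.5 on oil-oil arrays, 172.7, 15.1, 89.7 and 105.2 on oil-DBP arrays and 90.3, 115.1, 117.7 and 34.9 on DBP-oil arrays. Its mean was lowest in the doubly exposed group, whose arrays overlapped with those of oil-DBP and DBP-oil. It differed from oil-oil by -1.47 ± 0.45 (limma adjusted p = 0.0445) and from oil-DBP by -1.40 ± 0.45 (adjusted p = 0.338), and its call against oil-oil was lost in 14 of 22 other settings, including leaving out any of the oil-oil arrays or the DBP-DBP array of pup 124, 133 or 135. Smtnl2 differed from oil-DBP by -0.31 ± 0.13 (adjusted p = 0.492).

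**Figure D5:**
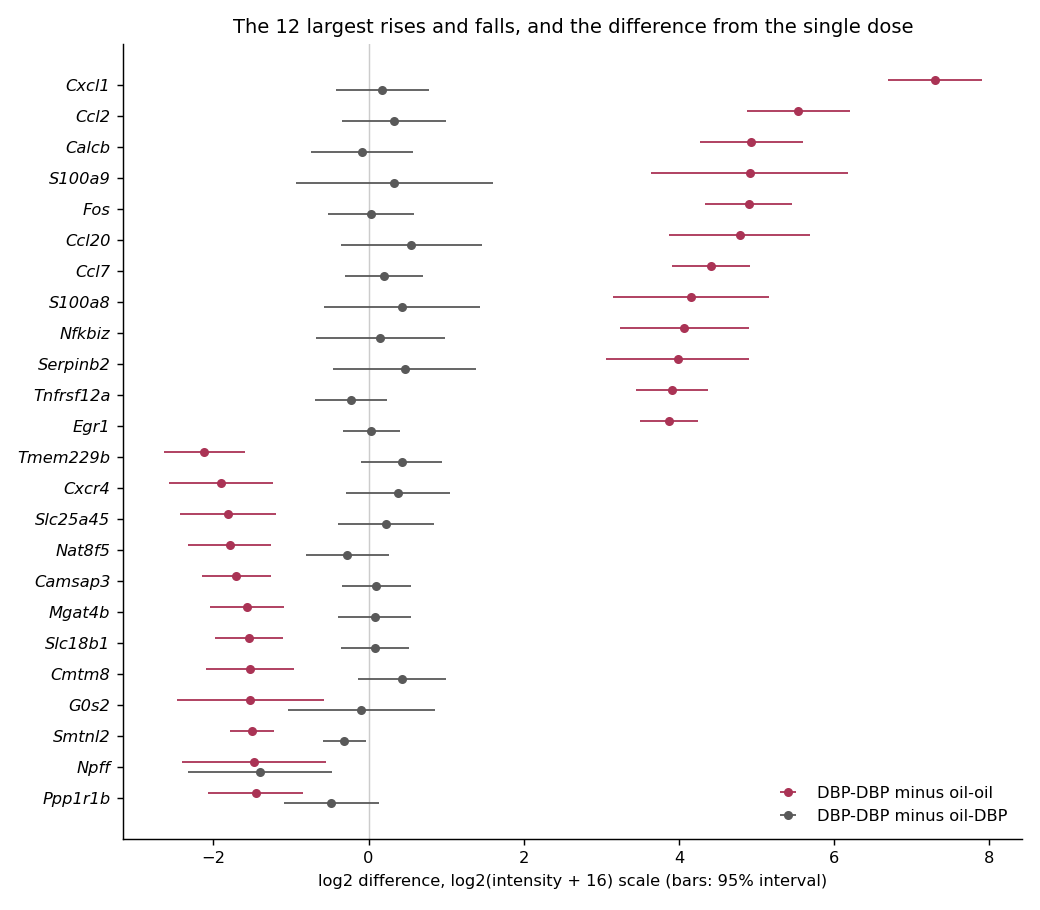
Log2 difference, with its 95% interval from limma, of DBP-DBP from oil-oil (red) and from oil-DBP (grey) for the 12 largest rises and 12 largest falls. The grey points lie between -0.23 and 0.55 for the rises, and among the falls the grey intervals of Npff and Smtnl2 do not reach 0.

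The smallest p-values against oil-DBP belonged to Foxo3, Sncb, Mroh4, Vamp2 and Birc2, none of which passed. Foxo3, a forkhead transcription factor, read 767.9, 858.8, 858.5 and 818.3 on DBP-DBP arrays, 1075, 1340, 1291 and 1245 on oil-DBP arrays and 1081, 1032, 1187 and 1312 on oil-oil arrays. The DBP-DBP arrays were below both other groups, by -0.54 ± 0.09 against oil-DBP (limma adjusted p = 0.0762) and by -0.51 ± 0.09 against oil-oil (adjusted p = 0.00121), and 2 further Foxo3 probe sets did not pass against oil-oil. Sncb, beta-synuclein, differed by -0.42 ± 0.08 from oil-DBP (adjusted p = 0.0779) and by -0.80 ± 0.08 from oil-oil. Birc2, an inhibitor of apoptosis, read 2370, 2342, 2451 and 2456 on DBP-DBP arrays and 1934, 1771, 1883 and 2087 on oil-DBP arrays, a difference of 0.35 ± 0.07 (adjusted p = 0.115). Every DBP-DBP array belongs to the high and every oil-DBP array to the low spike-in class, so class moves with these differences too, and its part in them was not tested.

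The fetal exposure without the postnatal dose gave 1 probe set past the threshold in DBP-oil against oil-oil (0.00322%), and 2299 at an unadjusted p under 0.05 (7.41%). The count was 14 without the oil-oil array of pup 120, 9 without that of pup 110, and 0 without any other array of either group. That probe set, named here because it was the only one called, belongs to Tra2a, a splicing factor, and is not the brightest of that gene. It read 203 to 391 on oil-oil, 531 to 570 on DBP-oil and 486 to 571 on DBP-DBP arrays, a difference of 1.01 for DBP-oil (limma adjusted p = 0.0372). It also passed in the total difference, by 0.95 ± 0.15 (adjusted p = 2.18e-04), and read 425 to 493 on oil-DBP arrays, whereas the brightest Tra2a probe set did not pass in the total difference. For the 12 largest rises the fetal difference lay between -0.42 and 0.59 and for the 12 largest falls between -0.83 and 0.08. Angptl4 read 212.3, 147.2, 245.3 and 187.5 on DBP-oil arrays, below all oil-oil arrays. The fetal exposure alone was thus at -0.85 ± 0.18 (adjusted p = 0.163), while its DBP-DBP arrays were at 1026 to 1160.

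The interaction, the departure of the total difference from the sum of both single exposures on the log2 scale, passed for 0 of 31042 probe sets with limma, and 1466 had an unadjusted p under 0.05 (4.72%). The smallest p-values named RT1-T24-3, Peds1, Avp, Scn1a and Leng9. Avp, vasopressin, read 26.9, 23.0, 16.7 and 29.1 on oil-oil arrays, 64.02, 89.9, 68.8 and 76.0 on DBP-oil arrays and 7.23, 19.9, 9.32 and 16.03 on DBP-DBP arrays. The oil-DBP arrays read 19.2 to 56.9. The DBP-oil arrays were above all others, at dim levels throughout, and its interaction had an adjusted p of 0.672 in limma. All these contrasts share arrays with the total difference, so they are set side by side here and are not independent of it.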

How the data were processed

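The deposited values were probe-set intensities on a linear scale, 1 column per array, which the authors made with GCOS 1.0, per the submitters' processing notes. How probes were summarized is, in the sources at hand, not given. In the values, every array shares 1 trimmed mean. RNA was extracted with a column kit for 14 of the 16 PND35 arrays and with Trizol and clean-up for the oil-oil array of pup 104 and the oil-DBP array of pup 115, per the labels' protocols.

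After 57 control probe sets were left out, the 16 PND35 arrays were taken as log2(intensity + 16), centred on their medians (which spanned 0.155, over the limit of 0.1) and fitted in 4 groups with limma 3.58.1 (lmFit, eBayes with an intensity trend, R 4.3.3), with Benjamini-Hochberg adjustment over 31042 probe sets and a threshold of 0.05. The fit was tested on simulated data. Of these probe sets 20826 carry 1 gene symbol, 436 several and 9780 none. A gene is represented by its probe set with the highest mean. Named genes are the 12 largest rises and falls among called genes with no overlap of the arrays, up to 4 called genes per list, the 5 smallest p-values (or the 5 largest changes each way) of the other comparisons, and a fixed set of 24 genes. The members and lists were chosen with earlier results of these data known. The alternatives were other scalings, pseudocounts, filters, variance models, covariates and leaving out each array. Promoters were searched for motifs on both strands.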

Additional observations from a re-analysis of the deposited data

Results flagged for a closer look

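Among the named genes, 244 groups of 4 arrays were screened with Dixon's test at the 95% level, and 6 held an array far from the other 3 (2.46%), where chance alone flags about 1 in 20 groups. Nfkbiz, the atypical NF-kB inhibitor, read 7.91 on the oil-oil array of pup 104, against 43.0 to 51.4 on the other oil-oil arrays. That array is 1 of the Trizol extractions. Cebpd, an acute phase transcription factor, read 91.0 on the oil-oil array of pup 114, against 107 to 111. In the doubly exposed group Fst, follistatin, read 1192 on the array of pup 133, against 627 to 658 on the others. Peds1, the enzyme that makes plasmalogens, read 430 on the same array, against 303 to 311. Cdkn1a, p21, read 1730 on the array of pup 128, against 1979 to 2006. Fdps, the farnesyl diphosphate synthase of cholesterol synthesis, read 5626 on the array of pup 135, against 6485 to 6643.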

How the results depend on the processing

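In the settings tried no named gene past the threshold changed sign, and 2541 of the 2561 probe sets kept theirs with the spike-in class. Both sets were picked for passing in these same arrays, which makes a change of sign unlikely, so the kept signs carry no test. The 2561 probe sets of the total difference (56.9% of them higher) became 945 with the RNA integrity number as a covariate (70.5% higher), 343 with spike-in class in the fit (83.1% higher), and 1675 to 2568 on leaving out 1 array, lowest without the DBP-DBP array of pup 133. The other settings gave 1876 (no intensity trend) to 3150 (array weights). Against oil-DBP, 0 probe sets became 7 with quantile normalization, 1 with centring on the 75th percentile, 3 with no centring, 1 with no intensity trend, 16 with array weights, 1 without the Trizol arrays, 63 with the RNA integrity number and 0 to 35 on leaving out 1 array, 35 without the oil-DBP array of pup 105. The 1 probe set of DBP-oil against oil-oil became 0 with no intensity trend, with the extraction method or the spike-in class as a covariate and without the Trizol arrays, 14 with the RNA integrity number, and 0 to 14 on leaving out 1 array. The interaction had 0 calls in every setting. Of 108 named genes past the threshold, 53 kept their call with the spike-in class, 51 kept it in every setting and 24 lost it with the class covariate alone. With the RNA integrity number as a covariate 32 lost it, among them Adm, Ctsl, Dbp, Scarb1, G0s2, Lyz2, Cldn1, Gja1 and Npff. In the fits with a covariate the SE of a change is larger, and the causes of the other changes were not tested. Dim genes near the pseudocount of 16 have compressed changes. No paired analysis was possible because the groups share no pup number. Adjacent pup numbers as a random block, a grouping that the labels do not state, had a consensus correlation of 0.0544 and gave 2572 calls in the total difference.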
